A study of Camelus dromedarius with 10 samples.

Results

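AEN, TP63 and TP73 are genes of the p53 system, and libraries of the dromedary camel supraoptic nucleus (SON) held read pairs counted to all 3 of them. Their rows in the table of counts were found by symbol, through the gene tables of the study that pair Ensembl IDs with symbols. This gave ENSCDRG00005020430 for AEN, ENSCDRG00005007787 for TP63 and ENSCDRG00005014518 for TP73, 3 of 22444 gene IDs in all and of 4316 IDs paired with a symbol. The set was chosen from values of the very contrast described here, in which the low level of AEN under dehydration was already known. The levels of the 3 genes are therefore a description, with no p-value, and nothing is read from the fact that AEN passes a threshold in this contrast.

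AEN encodes apoptosis enhancing nuclease, a nuclear exonuclease whose gene is switched on by p53 after DNA damage and which degrades nucleic acids during programmed cell death. TP63 and TP73 encode p63 and p73, transcription factors related to p53 that bind similar DNA elements. p63 is best known for the maintenance of stratified epithelia and of the germ line, and p73 for the development of the hippocampus and of multiciliated cells, among them the ependymal cells that line the brain ventricles.

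The SON is a hypothalamic nucleus whose magnocellular neurones make vasopressin and oxytocin, and the tissue punches also hold glia and vessels. RNA was sequenced after ribosomal depletion from the rostral SON of male camels aged 4 to 5 years, kept outdoors on a ranch. The 5 control camels had free access to food and water, and the 5 water-deprived (WD) camels had free access to food but no water for 20 days. Each library comes from 1 animal and is named by its group and animal number, for example CON2 and WD6.

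Total counts were 1665098 to 8126641 read pairs per library, but 5 gene IDs took 27.7% to 76.1% of them. Outside these IDs CON13 held 397495 read pairs and WD6 held 1106575, against 2078393 to 5872137 in the other 8 libraries. Levels are given as CPM, counts scaled to the TMM-normalized size of the library, on which scale 1 read pair is worth 1.20 CPM in CON13 and 0.475 CPM in WD6, but 0.0864 to 0.237 CPM in the others. Both of these thin libraries were kept, and the printed fold change of a gene is also given without both where that changes its call or moves it by over 1.5 times. Markers of magnocellular neurones were present in every library: the summed level of PDYN, VGF, OTP and SIM1 was 240 to 400 CPM in control and 886 to 2222 CPM in WD camels. Of these, PDYN and VGF had a higher mean level in WD camels, and OTP and SIM1 did not. AVP and OXT were not analysed here.

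The level of AEN was lower in every WD camel than in any control camel. Counts were 211 in CON2, 288 in CON3, 613 in CON4, 424 in CON5 and 40 in CON13. In WD camels they were 59 in WD6, 165 in WD7, 179 in WD8, 211 in WD9 and 105 in WD15. After normalization the control levels were 45.0 CPM in CON2, 68.1 CPM in CON3, 70.3 CPM in CON4, 62.1 CPM in CON5 and 47.8 CPM in CON13, so CON2 and CON13 lay below the other three. The WD levels were 28.0 CPM in WD6, 21.0 CPM in WD7, 27.5 CPM in WD8, 18.2 CPM in WD9 and 21.9 CPM in WD15. The groups did not overlap, since the lowest control, CON2, stood above the highest WD camel, WD6.

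Mean AEN was 58.7 ± 11.6 CPM in control and 23.3 ± 4.26 CPM in WD camels (SD, n = 5 each), a ratio of 2.52. The spread relative to the mean was alike in both groups, with coefficients of variation of 19.8% in control and 18.2% in WD. The log2 fold change of WD over control was -1.36 (SE 0.193), against a median of 0.02 over all 14432 genes tested. It was -1.50 without CON13 and WD6. In these thin libraries the exact 95% Poisson intervals of the counts were 34.2 to 65.1 CPM in CON13 and 21.3 to 36.1 CPM in WD6, which overlap. Such intervals cover counting error alone.

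At an adjusted p of 0.05 edgeR's quasi-likelihood F test called 72 genes, 0.499% of those tested, and 33 of them (0.229%) were lower in WD. AEN is one of these 33, as the choice of the gene implies, and the 17th by the size of its fall. In all, 184 genes (1.27%) were lower in WD without overlap between the groups. In bulk tissue a smaller share of the cells that carry a transcript and less of the transcript per cell cannot be told apart.

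TP63 had few reads and no separation between the groups. Counts were 21 in CON2, 27 in CON3, 9 in CON4, 11 in CON5 and 18 in CON13, and 16 in WD6, 11 in WD7, 15 in WD8, 7 in WD9 and 9 in WD15. The control levels were 4.48 CPM in CON2, 6.39 CPM in CON3, 1.03 CPM in CON4, 1.61 CPM in CON5 and 21.5 CPM in CON13. The WD levels were 7.59 CPM in WD6, 1.40 CPM in WD7, 2.30 CPM in WD8, 0.605 CPM in WD9 and 1.88 CPM in WD15. The thin library of each group had its highest level, and all WD values but that of WD9 lay within the control range.

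Mean TP63 was 7.01 ± 8.40 CPM in control and 2.76 ± 2.78 CPM in WD camels (SD, n = 5 each), so that in both groups the SD was larger than the mean. The log2 fold change was -1.23 (SE 0.787) and did not pass the threshold. Its size rested on single libraries: it was -0.45 without CON13, -1.88 without WD6 and -1.13 without both. The 18 read pairs of CON13 gave a 95% Poisson interval of 12.8 to 34.0 CPM.

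TP73 was read at a similarly low number of counts, and its groups overlapped as well. Counts were 26 in CON2, 31 in CON3, 14 in CON4, 19 in CON5 and 3 in CON13, and 6 in WD6, 26 in WD7, 25 in WD8, 24 in WD9 and 17 in WD15. The control levels were 5.55 CPM in CON2, 7.33 CPM in CON3, 1.61 CPM in CON4, 2.78 CPM in CON5 and 3.59 CPM in CON13. The WD levels were 2.85 CPM in WD6, 3.32 CPM in WD7, 3.84 CPM in WD8, 2.07 CPM in WD9 and 3.54 CPM in WD15. All 5 WD camels lay between CON4 and CON2, with CON5 and CON13 among them and CON3 above.

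Mean TP73 was 4.17 ± 2.28 CPM in control and 3.12 ± 0.690 CPM in WD camels (SD, n = 5 each), with coefficients of variation of 54.6% and 22.1%. The log2 fold change was -0.41 (SE 0.457) and did not pass the threshold. It ranged from -0.67 without CON4 to -0.09 without CON3 and was -0.42 without CON13 and WD6. The 3 read pairs of CON13 allow any level from 0.740 to 10.5 CPM by their 95% Poisson interval.

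**Figure D1:**
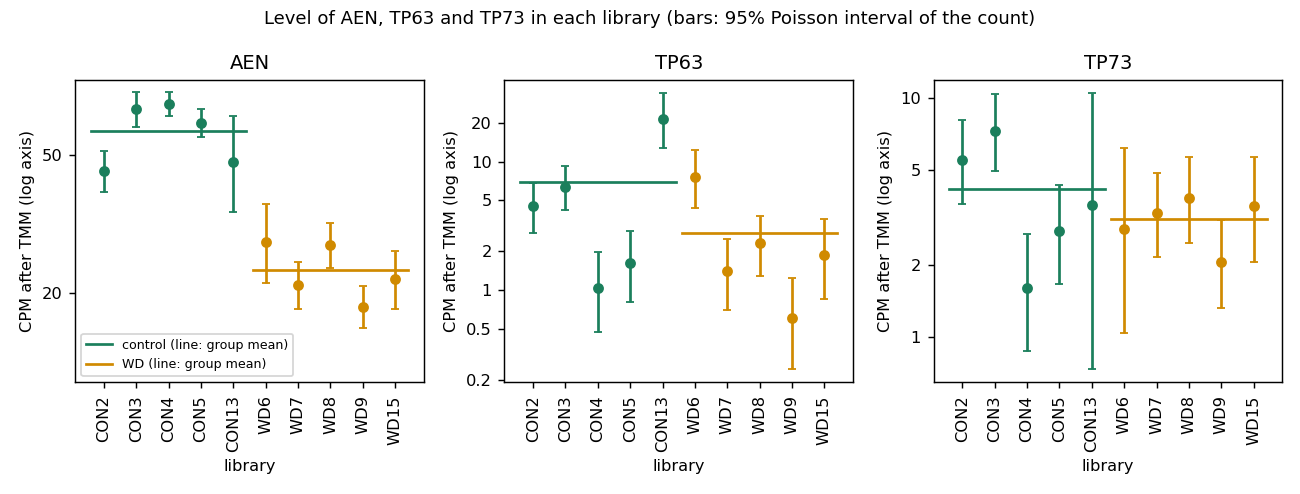
Level of AEN, TP63 and TP73 in CPM (log axis) in each of the 5 control and 5 WD libraries; points are libraries, bars the 95% Poisson intervals of their counts and horizontal lines the group means. All control libraries lie above all WD libraries for AEN (45.0 CPM and above against 28.0 CPM and below), whereas the groups overlap for TP63 and TP73.

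The level of TP63 fell with the depth of the library, a relation that was examined after its counts had been seen. Over the 10 libraries the log2 CPM of TP63 was related to the log2 number of read pairs outside the 5 dominant IDs with Pearson's r = -0.953 and Spearman's rho = -0.988, which are given as a description. Without CON13 and WD6, the libraries farthest from the median depth, r was -0.928. Within groups rho was -1.0 in control and -0.90 in WD camels. CPM and depth share a denominator, so any count that does not scale with depth has a level that falls with it. TP63 counts stayed between 7 and 27, a 3.86-fold range, while depth varied 14.8-fold. The cause of the relation was not tested. Of the 14432 genes tested, 14 (0.0970%) had an r as low as that of TP63, and the median r of all genes was 0.08.

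AEN counts covered a 15.3-fold range, from 40 to 613, close to the range of the depth. Its level had r = -0.204 with depth and rho = -0.285, and r was -0.316 without CON13 and WD6. Within groups rho was 0.50 in control and -0.90 in WD camels, so that the deepest library, WD9, had the lowest AEN level of the WD group. TP73 had r = -0.345 and rho = -0.648, but r = -0.871 without CON13 and WD6, where it had only 3 and 6 read pairs. With a covariate that sets the 5 libraries of least depth (CON2, CON3, CON13, WD6 and WD15) apart from the other 5, the log2 fold change was -0.52 for TP63, -0.14 for TP73 and -1.38 for AEN.

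**Figure D2:**
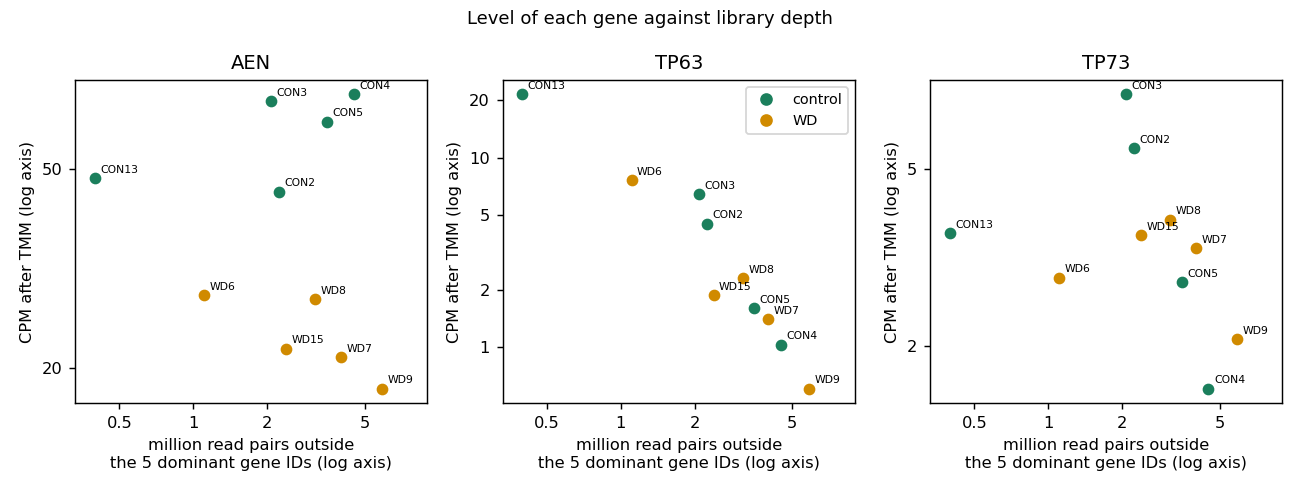
Level of AEN, TP63 and TP73 in CPM (log axis) against the number of read pairs outside the 5 dominant gene IDs (log axis), 1 point per library. TP63 falls with depth in both groups (r = -0.953), while AEN separates into a control band and a WD band (r = -0.204).

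Genes that work with p63 in epithelia were thinly read too. Of 12 epithelial factors, 4 passed the filter on low counts (GRHL1, GRHL3, KLF5 and ZNF750), 0 were called by edgeR or by DESeq2, 0 had an unadjusted p under 0.05 (0.499% and 9.31% of all genes), and their log2 fold changes ran from -1.42 (GRHL3) to 0.26 (GRHL1) with a median of -0.62. Without CON13 and WD6 the median was -0.39, and GRHL3 was at -0.44. The summed level of all 12 was 23.6 to 76.5 CPM in control, highest in CON13, and 15.6 to 45.1 CPM in WD camels, highest in WD6, so the same thin libraries stood at the top as for TP63; without them the sums were 23.6 to 41.6 CPM and 15.6 to 30.1 CPM. The 4 tested factors all had an r below 0 with depth, from -0.712 to -0.299, as did 46.2% of all genes and 6 of the 7 multiciliated cell factors that follow.

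The list of multiciliated cell factors covers the cells of the brain lining in which p73 is known. All 7 on the list were tested and 0 were called by edgeR or by DESeq2, with 1 (E2F5) at an unadjusted p under 0.05, where 0.499% and 9.31% of all genes passed; counts this small cannot be set apart from those shares. The median log2 fold change was 0.20. FOXJ1, the master regulator of motile cilia, was at 4.98 CPM in control and 5.68 CPM in WD camels, a log2 fold change of 0.25 (SE 0.465; adjusted p = 0.929, edgeR with Benjamini-Hochberg adjustment). MYB had the lowest log2 fold change, -1.19, but did not pass the filter on low counts without CON13 and WD6. E2F5 had the highest, 0.55, with an adjusted p of 0.486 in the same edgeR test. The summed level of the list was 78.9 to 105 CPM in control and 83.4 to 135 CPM in WD camels.

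The p53 network around AEN was described through genes listed by role. Only genes whose symbols come from complete tables of gene classes were taken, which leaves out AEN itself and the further targets given below. Of 56 genes, 54 were tested and CASP6 (86 counts in all) and CDK1 (14 counts) did not pass the filter. By edgeR with Benjamini-Hochberg adjustment 0 of the 54 were called, against 0.499% of all genes, and DESeq2's Wald test also called 0; a count of 0 among 54 lies near the share of all genes. At an unadjusted p under 0.05 there was 1 gene, PLK3, where 9.31% of all genes passed, and 3 (PLK3, FAS and CASP9) without CON13 and WD6. The groups overlapped for every gene of the 54, against 2.62% of all genes that did not overlap in either direction. The log2 fold change was above 0 for 34 and below 0 for 20, with a median of 0.07. The summed level of the network was 1285 to 1498 CPM in control and 1330.3 to 1493 CPM in WD camels.

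Among the 16 upstream kinases, which signal DNA damage and other stress to p53, 9 log2 fold changes were above 0 and 7 below, with a median of 0.01. They ran from -0.45 for CHEK1 to 0.29 for CHEK2, the effector kinases of the checkpoint, and CHEK2 was at 0.43 without CON13 and WD6. The 16 modifiers, which stabilise, destroy or mark p53, had a median of 0.04 and ran from -0.35 for AURKA to 0.52 for KMT5A, which without CON13 and WD6 were at -0.16 and 0.17. MDM2, the ubiquitin ligase that degrades p53 and is itself a p53 target, was at 27.4 CPM in control and 30.6 CPM in WD camels, a log2 fold change of 0.16 (SE 0.234; adjusted p = 0.896, edgeR with Benjamini-Hochberg adjustment) that was 0.26 without CON13 and WD6.

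The 13 tested target genes, the class to which AEN itself belongs, had a median log2 fold change of 0.22, with 10 above 0 and 3 below. PLK3, a stress kinase, was at 6.84 CPM in control and 13.1 CPM in WD camels, a log2 fold change of 1.03 (SE 0.350) with an adjusted p of 0.304 in edgeR's test. Its highest value was that of the thin library WD6, 25.2 CPM, and the control CON13, at 12.0 CPM, stood above 3 WD camels; without both libraries the log2 fold change was 0.84 (adjusted p = 0.199 by edgeR). ATF3, a stress-induced transcription factor, had the lowest log2 fold change of the network, -0.76 (SE 0.581), and -0.19 without CON13 and WD6. FAS, the death receptor, was at 6.47 and 8.89 CPM in control and WD camels, a log2 fold change of 0.44 (SE 0.385; adjusted p = 0.792, edgeR with Benjamini-Hochberg adjustment).

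The 9 tested genes of the caspase and arrest machinery had a median log2 fold change of -0.0020, with 4 above 0 and 5 below. CASP9, the initiator caspase of the mitochondrial route, had the lowest value, -0.59 (SE 0.311; adjusted p = 0.599, edgeR with Benjamini-Hochberg adjustment), and CASP8, the initiator at death receptors, the highest, 0.30.

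**Figure D3:**
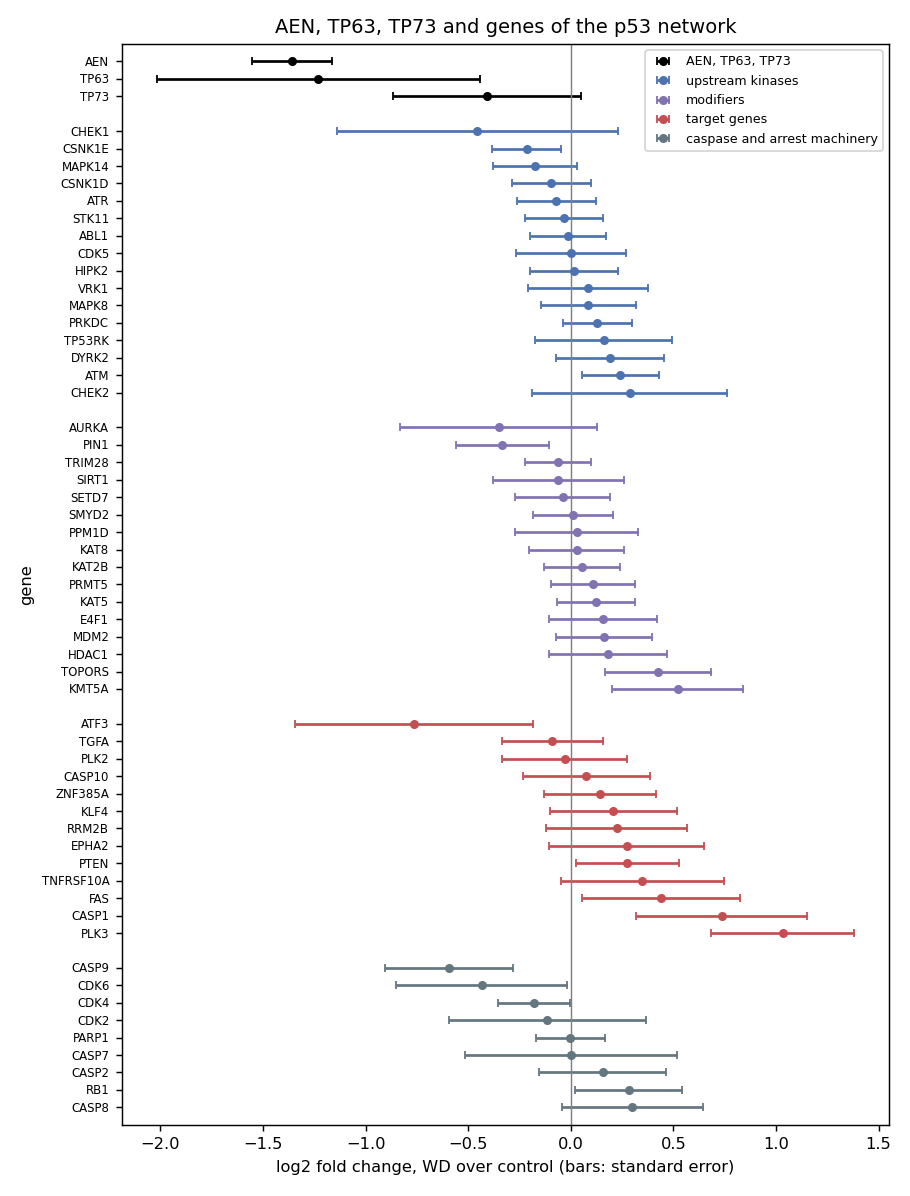
Log2 fold change of WD over control (bars: standard error) for AEN, TP63, TP73 and the 54 tested genes of the p53 network, ordered within 4 roles. AEN, which was chosen for its low level in this contrast, is at -1.36, and the 54 run from -0.76 (ATF3) to 1.03 (PLK3).

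A further 5 targets of p53 are paired with an ID only in a table of this contrast that is held shortened and favours small p-values: 876 of its 1030 tested genes not found elsewhere have an unadjusted p under 0.05. AEN comes from the same table. These 5 are given as values, and nothing is read from their number. SAT1, which acetylates polyamines for breakdown, was 67.4 CPM in control and 162 CPM in WD camels and rose by a log2 fold change of 1.25 (SE 0.205; adjusted p = 0.00633, edgeR with Benjamini-Hochberg adjustment), with no overlap between the groups. CDKN1A, which encodes the cell cycle inhibitor p21, was at 4.38 CPM in control and 8.20 CPM in WD camels, a log2 fold change of 0.87 (SE 0.310). Its groups did not overlap, and its adjusted p was 0.345 in the same edgeR test.

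SESN3, one of the sestrins, which restrain growth signalling, was at 79.7 and 115 CPM in control and WD camels, a log2 fold change of 0.52 with an adjusted p of 0.453. TIGAR, a regulator of glycolysis, was at 14.1 and 18.5 CPM, a log2 fold change of 0.44 with an adjusted p of 0.524. GLS2, the p53-induced glutaminase, was at 29.0 and 19.9 CPM, a log2 fold change of -0.49 with an adjusted p of 0.486, all by edgeR with Benjamini-Hochberg adjustment.

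AEN also belongs with exonucleases of the DEDD kind, among them the RNA exonucleases named REXO, of which 3 were paired with an ID. By edgeR 0 were called, 2 (REXO2 and REXO5) had an unadjusted p under 0.05, and DESeq2 called 0. Of all genes edgeR called 0.499% and 9.31% had such a p, but of those known only from the shortened table, as REXO2 and REXO5 are, 85.0% did. REXO5 was at 8.23 CPM in control and 3.70 CPM in WD camels, a log2 fold change of -1.03 (SE 0.365; adjusted p = 0.343, edgeR with Benjamini-Hochberg adjustment), and its groups did not overlap. REXO2, an oligoribonuclease of mitochondria, was at 13.2 and 25.5 CPM, a log2 fold change of 0.88 (SE 0.240) with an adjusted p of 0.166, and its groups overlapped. REXO4 was at 14.7 and 17.3 CPM, a log2 fold change of 0.29 (SE 0.235) with an adjusted p of 0.762.

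The genes whose log2 CPM was most like that of AEN were searched among 2330 tested genes whose symbols come from complete tables of gene classes. Both groups enter Pearson's r over the 10 libraries, so a gene that differs clearly between them tends to have an r far from 0. The sign is positive if it is lower in WD and negative if it is higher. This r is given as a description with no p. OPRL1, the nociceptin receptor, had the highest r, 0.977, and kept r = 0.797 after each group was centred on its own mean. It was at 13.6 CPM in control and 7.20 CPM in WD camels, and its log2 fold change of -0.94 had an adjusted p of 0.0683 by edgeR with Benjamini-Hochberg adjustment, which was 0.0362, past the threshold, without CON13 and WD6. The next highest were the transcription factor FOXP4 (r = 0.929, within groups 0.540), the receptor tyrosine kinase RET (0.905 and 0.530), the thyroid hormone receptor THRA (0.888 and 0.624) and the neuronal factor MYT1L (0.888 and 0.232).

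FOXP4 and RET were called like AEN: FOXP4 had a log2 fold change of -1.46, and RET fell from 54.0 to 21.7 CPM with a log2 fold change of -1.31 and an adjusted p of 0.0123 in edgeR's test. THRA was not called (log2 fold change -0.47). MYT1L, at -0.73, had an adjusted p of 0.0963 by edgeR over the 10 libraries and was not called. Without CON13 and WD6 it was called (-0.82, adjusted p = 0.0366 by edgeR). At the other end lay ADRA1A, an adrenergic receptor (r = -0.917), FOS, a gene of neuronal activity (-0.894), the prohormone convertase PCSK1 (-0.890), VGF (-0.886) and PDYN (-0.882), the last a precursor of opioid peptides. Within groups PCSK1, VGF and PDYN had r of -0.01, 0.06 and 0.04 with AEN, FOS had -0.196 and ADRA1A -0.455. For PCSK1 this value pools opposite relations, with r = 0.870 over the 5 control and -0.836 over the 5 WD camels.

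Within groups the order was another one: PBX2 had the highest r, 0.899, followed by DPF1 (0.817), GTF3C4 (0.804), OPRL1 (0.797) and EZH1 (0.746). Apart from OPRL1 these genes had r of 0.457 or less over the 10 libraries. Of all 14432 genes tested, 9 (0.0624%) had an r of at least 0.9 with AEN and 7 an r of -0.9 or less. TP63 and TP73 were not among them: their r with AEN was 0.328 and 0.174 over the 10 libraries, and -0.01 and -0.09 within groups.

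**Figure D4:**
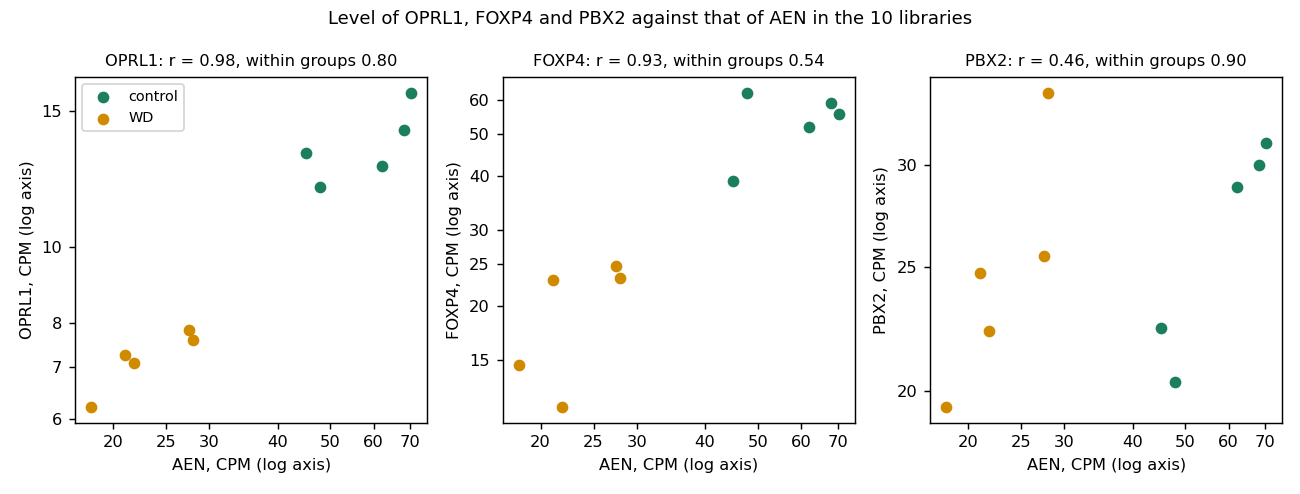
Level of OPRL1, FOXP4 and PBX2 against that of AEN (CPM, log axes) in 5 control and 5 WD libraries, 1 point per library. OPRL1 follows AEN between and within the groups, FOXP4 mostly between them, and PBX2 (r = 0.457 over the 10 libraries, 0.899 within groups) within them.

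Markers of other cells in the punches are given beside the lower level of AEN. Of 4 astrocyte markers, whose symbols come from the shortened table, 0 were called by edgeR (0.499% of all genes) and 1, ALDOC, by DESeq2, and 3 had an unadjusted p under 0.05, all higher in WD, against 85.0% of all genes known only from that table. The fourth, SLC6A11, had a log2 fold change of -0.31. The summed level of the 4 did not overlap between the groups, at 358 to 481 CPM in control and 514 to 671 CPM in WD camels. Nothing is read from this, since the shortened table favours small p-values in this contrast. Of 5 microglial markers 0 were called by edgeR (0 by DESeq2), 4 had an unadjusted p under 0.05 (9.31% of all genes), all higher in WD, and all 5 had log2 fold changes above 0, with a median of 0.90 and summed levels of 193 to 323 CPM and 238 to 722 CPM. The sums overlapped for 9 vascular markers (301 to 485 CPM and 300 to 583 CPM) and for 5 oligodendrocyte markers (105 to 282 CPM and 107 to 232 CPM). Of these, 0 were called by edgeR, against 0.499% of all genes (0 vascular and 0 oligodendrocyte markers by DESeq2). An unadjusted p under 0.05 was found for 2 vascular and 0 oligodendrocyte markers, against 9.31% of all genes.

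Of the 4 magnocellular markers 2 were called (0.499% of all genes), both higher in WD. These were VGF, at 50.0 and 801 CPM in control and WD camels, and PDYN, at 162 and 618 CPM. At an unadjusted p under 0.05 there were 3 (9.31% of all genes), 1 of them (OTP) lower. The lineage factors of these neurones were not called: OTP was at 39.5 and 25.7 CPM (log2 fold change -0.58, adjusted p = 0.454) and SIM1 at 71.0 and 68.8 CPM (log2 fold change -0.04, adjusted p = 0.973), by edgeR with Benjamini-Hochberg adjustment. Every marker of these lists had reads. The part of cell composition in the level of AEN was not tested.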

How the data were processed

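RNA of 5 control and 5 WD camels was measured by ribosomal-depleted, stranded RNAseq. The authors aligned reads to Camdro2 with STAR 2.5.3a, counted read pairs per gene with Rsubread 2.4.3, and deposited whole-number counts for each library. They also deposited normalized values, a signal made by dividing the counts by 1 DESeq2 size factor per library (largest relative departure 5.37e-10); this table was used only for that check. The annotation release and strand setting of the counting are not given in the sources used here, so overlapping genes are uncertain. Gene lengths were not used, and CPM are not compared between genes.

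Counts were analysed in R 4.3.3 with edgeR 4.0.16 (TMM, filterByExpr by group, robust quasi-likelihood F test) and Benjamini-Hochberg adjustment over 14432 genes at 0.05; the biological coefficient of variation was 0.285. A standard error is the log2 fold change divided by the square root of F. Correlations used log2 CPM with a prior count of 0.5 and scipy 1.17.1. "Called" means past this threshold. A result on 1 listed gene is not reported here. The edgeR test was checked on simulated counts.

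The members and the gene lists were chosen with earlier results of these data known. Named genes are the members, MDM2, FAS, FOXJ1, CDKN1A, TIGAR, SESN3, the REXO genes, list genes past the threshold, the highest and lowest log2 fold change of a list, and the 5 genes of highest and of lowest r over the 10 libraries and the 5 of highest r within groups; a few others (GLS2, the tested epithelial factors, E2F5, ALDOC, SLC6A11, OTP and SIM1) were named after their values were seen. Alternatives were DESeq2 1.42.0 (Wald test or size factors), library totals with or without the 5 dominant IDs (each over 1% of a library), the low-count filter dropped or raised to 10 counts per library, a non-robust fit, RIN, short fragments or depth group as covariates, each library left out, and, chosen after seeing the data, CON13 and WD6 left out together.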

Additional observations from a re-analysis of the deposited data

How the results depend on the processing

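The log2 fold change of AEN lay between -1.50 and -1.26 in all 21 alternatives, from -1.47 (without CON2) to -1.28 (without WD9) when 1 library was left out. With library totals without TMM it did not pass the threshold, and 10 genes did (7 higher, 3 lower); the median of all genes moved from 0.02 to 0.16. TP63 (-0.45 to -1.88 with 1 library left out) and TP73 (-0.09 to -0.67) were below 0 and not called in all 20 alternatives that gave a value; neither had at least 10 counts in every library. The p53 network as listed had 0 called genes in all 21. That list leaves out AEN and the 5 targets known only from the shortened table, of which SAT1 was called by edgeR. The number of genes called was 209 with DESeq2 (105 higher, 104 lower), 224 with the depth group as a covariate (122 higher, 102 lower), 88 without CON13 and WD6, and 40 (without CON3) to 102 (without WD6) with 1 library left out, 42 without CON5. With RIN as a covariate it was 104, of which 70 were higher. The likeness of OPRL1 to AEN was 0.970 to 0.989 with 1 library left out and 0.939 by Spearman's rho. No paired analysis was possible because the control and WD groups are made of different camels. TP63 and TP73 rest on 144 and 191 read pairs in all, against 2295 for AEN, so their values are less precise.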
